A study of Mus musculus with 8 samples.

Results

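Promiscuous expression of tissue-restricted self antigens was examined in a medullary thymic epithelial cell (mTEC) line through 38 genes whose products are classic antigens of single tissues. The genes were chosen by symbol, as well-known products of the endocrine pancreas, thyroid, mammary gland, liver, gut, eye, nervous system, muscle and lung. No measured value entered the rule, although earlier results of these data were known when the list was made. All 38 symbols stood in the count tables, which list 24052 gene symbols. The cells were wild-type (WT) mTEC 3.10 and clone E6, derived from that line with Crispr-Cas9 aimed at Aire. Each was sequenced before and after adhesion of thymocytes, which gave 8 libraries, 2 for each condition. The sample labels give the genotype of E6 as Aire +/-, whereas the study's methods describe indels in both alleles. E6 is 1 clone, so that the mutation and other properties of the clone cannot be told apart. All cells were of the C57BL/6 strain and are labelled as passage 2. For the libraries after adhesion, thymocytes of young female C57BL/6 mice were added for 12 h at 50 per mTEC and then washed off. The labels give a culture time of 24 h for 3 libraries, namely WT after adhesion replicate 2, E6 before adhesion replicate 1 and E6 after adhesion replicate 1, and 12 h for the other 5. The protocol text of the E6 libraries before adhesion mentions co-culture, against their titles and source names, which were followed here. If the labelled culture times hold, the replicates of 3 conditions were separate cultures, while nothing says so for WT before adhesion or for the thymocyte preparations, so p-values measure the spread between these libraries, part of which may be technical.

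mTECs transcribe genes of many peripheral tissues and present the peptides to thymocytes, which removes self-reactive clones. AIRE acts mainly by releasing stalled RNA polymerase II at weakly active genes, and FEZF2 controls a further set of antigens. In the thymus, each such antigen is made by a small part of the mature mTECs at a time, so that its mRNA is scarce in the whole population. Insulin, thyroglobulin, S-antigen and the myelin proteins are well-known examples, and each is also a target in autoimmune disease of its tissue.

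The total count per library was 13506610 to 20145154, at which 3 counts corresponded to 0.149 to 0.222 CPM (counts per 1000000 counts on genes). A count of 0 allows a level of up to that floor. Floors and counting intervals cover counting error alone, as no molecular identifiers were used. Aire, the gene mutated in E6, had 3 counts in WT after adhesion replicate 2, 3 in E6 after adhesion replicate 2 and 0 in the other 6 libraries. At this depth the Aire count did not separate WT from E6, and it cannot check the labels. The 8 epithelial markers, among them Epcam, Krt8 and Krt18, summed to between 3091 and 5094 CPM. Of these 8, Cldn3 held 5 counts over all libraries. Krt5 and Trp63 were low, with means of 0.617 and 3.72 CPM in WT and 0.754 and 4.77 CPM in E6. The thymic epithelial genes Foxn1, Pax1 and Pax9 were present. Ly75 and Prss16, also thymic epithelial genes, had means of 28.7 and 4.8 CPM in WT and 20.9 and 3.4 CPM in E6. Psmb11, of the same list, and the medullary chemokines Ccl21a and Ccl19 had 0 counts in every library. The 10 mature mTEC markers summed to 2.67 to 25.5 CPM. Most of that sum was Relb, a subunit of NF-kappaB, at 2.61 to 21.4 CPM, and each of the other 9 had at most 24 counts in a library. Those 9 together came to 0.0608 to 0.106 CPM before adhesion, to 0.645 and 0.731 CPM in WT after adhesion and to 3.61 and 4.05 CPM in E6 after adhesion. The myeloid marker Lyz2 had 0 counts in every library before adhesion, 12 and 24 in WT after it and 109 and 88 in E6 after it. Mean levels before and after adhesion were 0.0345 and 0.463 CPM for Itgax and 2.19 and 5.31 CPM for Cd68. Csf1r, the other myeloid marker measured, went the other way, from 55.1 to 44.5 CPM. The part of carried-over thymus cells in the 9 markers was not tested. Replicate 1 of WT after adhesion stood apart, with 66.7% of its reads on genes and a slope of -0.45 in log2 count per 10% GC. In the other 7 libraries the slope lay between -0.02 and 0.14.

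Most of the 38 genes were not detectable at this depth. Counts were 0 in every library for 21 genes (55.3%), against 34.2% of all 24052 symbols. A further 12 genes (31.6%) held between 1 and 19 counts summed over the 8 libraries, against 14.2% of all symbols. The remaining 5 genes (13.2%), Tnnt2, Mbp, Tg, Sag and Gad2, had at least 20 counts, against 51.6% of all symbols. Tnnt2 and Mbp made up between 99.6% and 99.8% of the counts on the 38 genes in every library. The other 36 genes together held 11 to 30 counts per library, or 0.814 to 2.00 CPM.

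**Figure D1:**
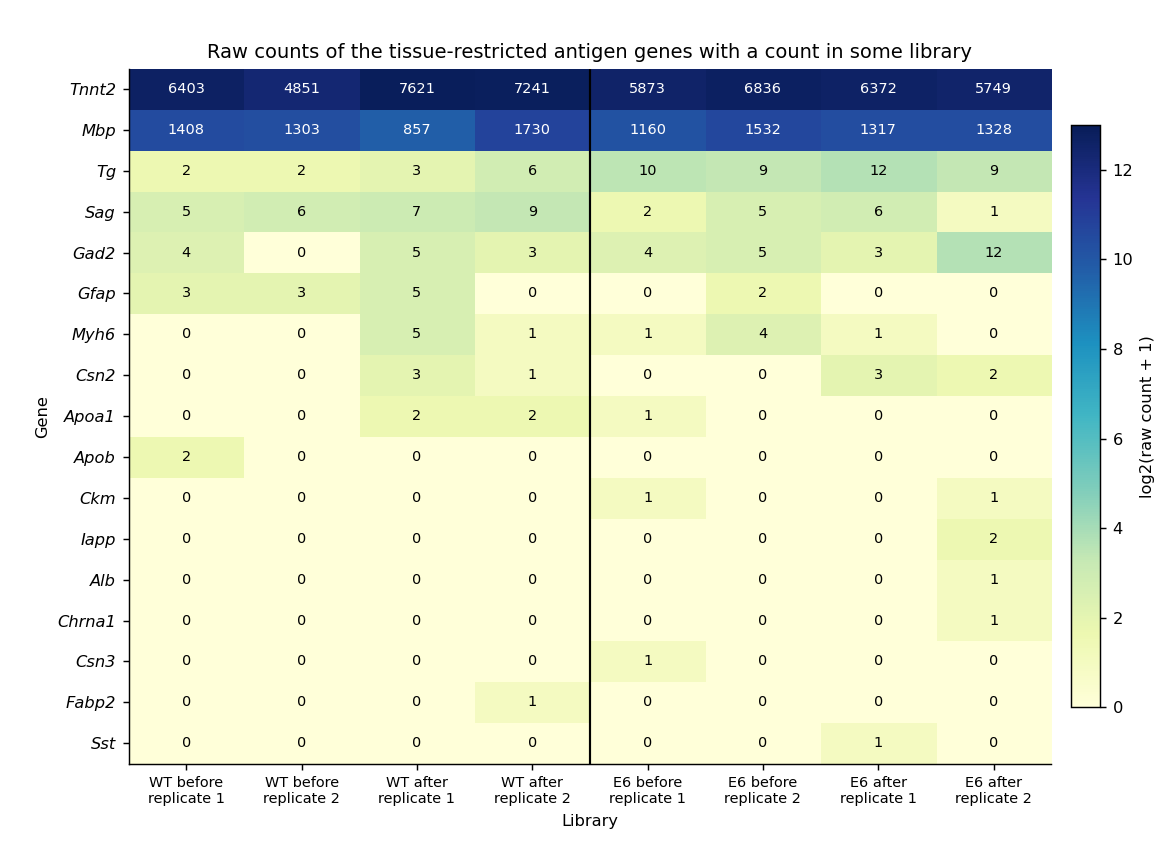
Raw counts of the 17 genes with a count in some library, by library. Rows are genes in order of their summed counts, columns are the 8 libraries (WT left of the line, E6 right of it), numbers are raw counts and the colour is log2(raw count + 1). Tnnt2 and Mbp lie between 857 and 7621 counts in every library, and no other gene exceeds 12 counts.

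The number of genes with at least 1 count was 7 and 5 in the WT libraries before adhesion (replicates 1 and 2) and 9 in both WT libraries after it. In E6 it was 9 and 7 before adhesion and 8 and 10 after it. WT (7.5 ± 1.92, SD, n = 4) and E6 (8.5 ± 1.29, SD, n = 4) overlapped, and so did the libraries before (7.0 ± 1.63, n = 4) and after adhesion (9.0 ± 0.817, n = 4). These shares, 13.2% to 26.3% of the 38 genes, were below the share of all symbols detected in the same library in all 8 libraries, which was 53.0% to 58.4%. After thinning each library to the smallest total, 5.00 to 9.26 genes were expected per library.

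**Figure D2:**
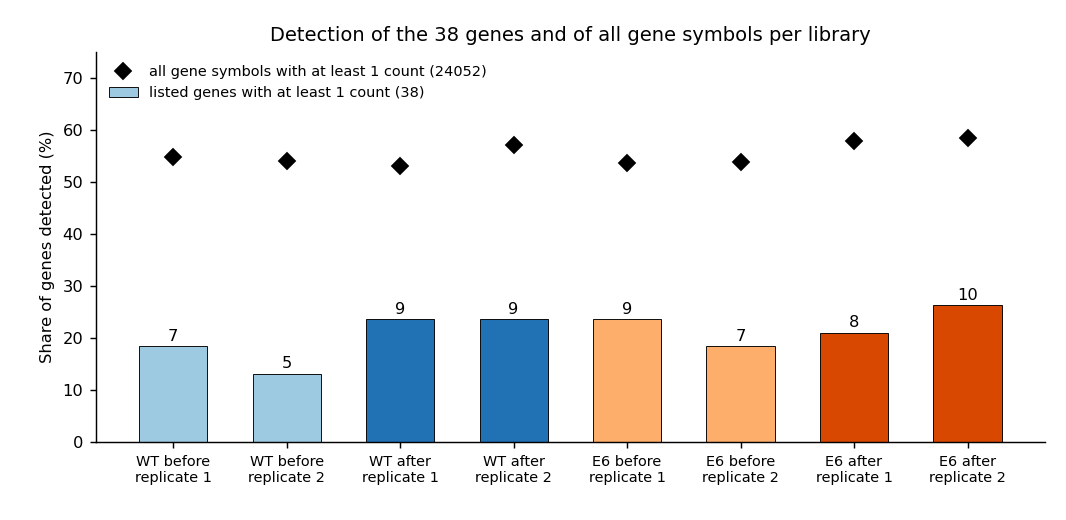
Detection per library, in percent. Bars give the share of the 38 genes with at least 1 count, with the number of genes above each bar, and diamonds give the share of all 24052 symbols. Bars reach 13.2% to 26.3% and diamonds 53.0% to 58.4%.

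Of the 8 genes of the endocrine pancreas, 5 had 0 counts in every library. These were Ins1 and Ins2, which both encode insulin in the mouse, Gcg for glucagon, Ppy for pancreatic polypeptide, and Gad1, a glutamate decarboxylase of neurons and a close relative of Gad2. Transcripts of Ins1 and Ins2 shared none of their 963 and 1611 windows of 100 bases. Sst, for somatostatin, had 1 count in E6 after adhesion replicate 1, and Iapp, for islet amyloid polypeptide, had 2 counts in replicate 2 of the same condition.

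Gad2 encodes GAD65, the islet autoantigen of type 1 diabetes, and lies on chr2:22622205-22693874 (GRCm38). Its counts were 4 and 0 in WT before adhesion, 5 and 3 in WT after adhesion, 4 and 5 in E6 before adhesion, and 3 and 12 in E6 after adhesion. The cell types overlapped, and replicate 2 of E6 after adhesion was the highest of the 8. Summed counts were 24 in E6 and 12 in WT, a ratio of CPM of 1.97 with an exact 95% counting interval of 0.949 to 4.33. Without the filter on low counts, the difference averaged over both states was 0.98 on the log2 scale (standard error [SE] 0.78, FDR 0.502, edgeR). FDR stands for the Benjamini-Hochberg adjusted p of the quasi-likelihood test of edgeR over all genes tested.

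Among the 5 mammary genes, Csn1s1 (a casein), Lalba (alpha-lactalbumin) and Wap (whey acidic protein) had 0 counts. Csn3, for kappa-casein, had 1 count in E6 before adhesion replicate 1. Csn2, for beta-casein, had 0 counts in all 4 libraries before adhesion, 3 and 1 in WT after adhesion, and 3 and 2 in E6 after adhesion. All 4 libraries after adhesion thus held Csn2 reads and none before it did, at counts that did not exceed the floor of 3, so no fold is given. The pattern of 0 counts in the 4 libraries before and at least 1 in the 4 after was met by 140 of the 24052 symbols (0.582%) and its reverse by 2. Without the filter on low counts, Csn2 did not pass the test averaged over the cell types (unadjusted p = 0.0293, FDR 0.491, edgeR).

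Of the 8 liver and plasma genes, Ttr (transthyretin), Fabp1 (liver fatty acid binding protein), Fgb (fibrinogen beta chain), Ambp (alpha-1-microglobulin and bikunin) and Crp (C-reactive protein) had 0 counts. Alb, for albumin, had 1 count in E6 after adhesion replicate 2. Apoa1, for the main protein of high-density lipoprotein, had 2 counts in each WT library after adhesion and 1 in E6 before adhesion replicate 1. Apob, for the core protein of low-density lipoprotein, had 2 counts in WT before adhesion replicate 1. In the gut, Fabp2 (intestinal fatty acid binding protein) had 1 count in WT after adhesion replicate 2, while the gastric mucin Muc6, the trefoil factor Tff3 and the antibacterial lectin Reg3b had 0. Both lung genes, Sftpc for surfactant protein C and Scgb1a1 for the club cell secretory protein, had 0 counts.

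Sag encodes the retinal S-antigen, an arrestin that is the target in experimental uveitis, and lies on chr1:87803680-87845158. Its counts were 5 and 6 in WT before adhesion, 7 and 9 in WT after adhesion, 2 and 5 in E6 before adhesion, and 6 and 1 in E6 after adhesion. Every library held Sag reads, and the range of WT (0.304 to 0.466 CPM) overlapped that of E6 (0.0614 to 0.368 CPM). Its summed counts were 27 in WT and 14 in E6, a ratio of CPM of 0.512 for E6 against WT with an exact 95% counting interval of 0.248 to 1.01. Without the filter on low counts, the log2 difference averaged over both states was -0.93 (SE 0.57, FDR 0.355, edgeR). The other eye genes, Rbp3 (the retinoid carrier of the interphotoreceptor space) and Crygd (a lens crystallin), had 0 counts.

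In the nervous system group, Mog, for myelin oligodendrocyte glycoprotein, had 0 counts. Gfap, the intermediate filament of astrocytes, had 3 and 3 counts in WT before adhesion, 5 and 0 in WT after adhesion, 0 and 2 in E6 before adhesion, and 0 in both E6 libraries after adhesion. WT held 11 Gfap counts and E6 2, a ratio of 0.179 with an exact 95% counting interval of 0.0193 to 0.822, and the libraries of the cell types overlapped. Without the filter on low counts, the Gfap difference had an FDR of 0.287 (edgeR).

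Mbp encodes myelin basic protein, and the same gene also gives rise to the golli transcripts, which thymocytes and other blood cells make. A count per gene cannot separate the myelin from the golli transcripts. Counts of Mbp were 1408 and 1303 in WT before adhesion, 857 and 1730 in WT after adhesion, 1160 and 1532 in E6 before adhesion, and 1317 and 1328 in E6 after adhesion. As CPM, the 4 E6 libraries lay between 80.05 and 81.5 (80.8 ± 0.599, SD, n = 4), inside the range of the WT libraries of 57.0 to 96.5 (81.2 ± 16.9, SD, n = 4). Replicate 1 of WT after adhesion was the lowest library for Mbp. The level per length was 6.73 to 11.4 CPM per kb of exon, between the 76.1st and 82.0th percentiles of the genes with a known length.

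In the muscle group, 4 of 4 genes had a count in some library. Chrna1, for the acetylcholine receptor alpha chain targeted in myasthenia gravis, had 1 count in E6 after adhesion replicate 2. Ckm, for muscle creatine kinase, had 1 count in the same library and 1 in E6 before adhesion replicate 1. Its exons overlap an antisense gene by 451 bases, and the strand setting of the counting is not given in the sources used here. Myh6, for the alpha myosin heavy chain of the heart, had 0 counts in both WT libraries before adhesion, 5 and 1 in WT after adhesion, 1 and 4 in E6 before adhesion, and 1 and 0 in E6 after adhesion, with 6 counts in each cell type.

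Tnnt2 encodes cardiac troponin T, the tropomyosin-binding subunit of the troponin complex, and lies on chr1:135836354-135852260. Counts of Tnnt2 were 6403 and 4851 in WT before adhesion, 7621 and 7241 in WT after adhesion, 5873 and 6836 in E6 before adhesion, and 6372 and 5749 in E6 after adhesion. Its level of 45.5 to 65.4 CPM per kb of exon stood between the 95.5th and 97.2nd percentiles of the genes with a known length. The median level of Tnnt2 was 48.4 CPM per kb, followed by Mbp with 9.59, whose ranges over the libraries did not overlap. Tg (0.0436 CPM per kb), Gad2 (0.0432) and Sag (0.0377) came next, and their ranges overlapped one another. In CPM, WT (404 ± 70.2, SD, n = 4) and E6 (377 ± 24.6, SD, n = 4) overlapped, and the highest library was replicate 1 of WT after adhesion with 507 CPM.

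**Figure D3:**
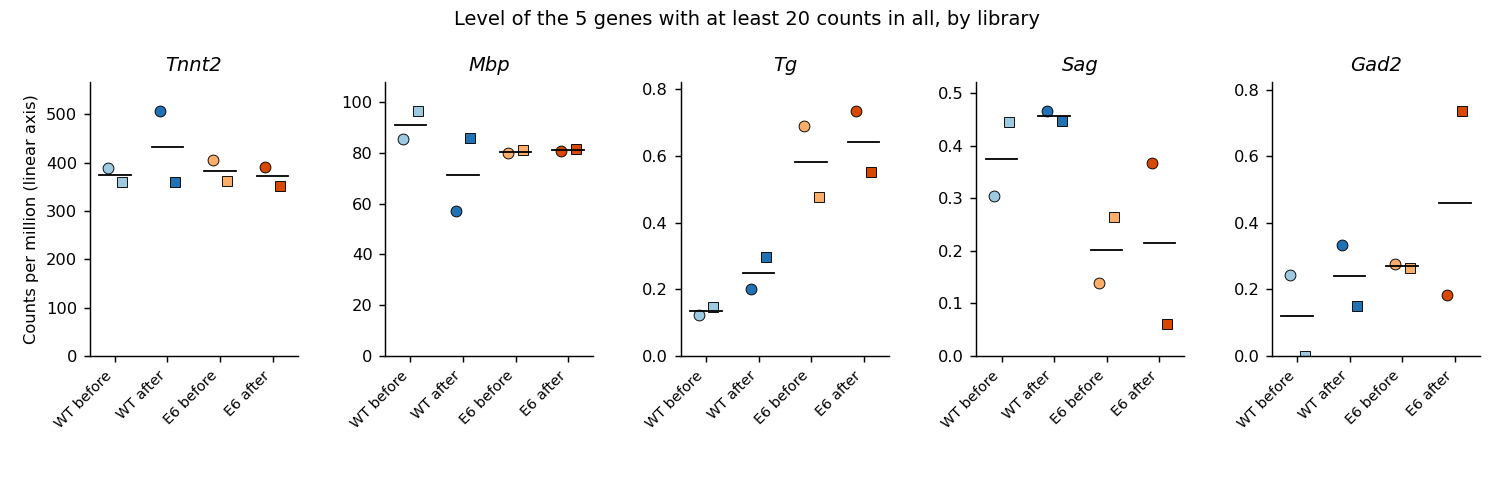
CPM of Tnnt2, Mbp, Tg, Sag and Gad2 in each library, on linear axes that start at 0. Circles are replicate 1, squares are replicate 2 and the lines are the means of 2 libraries per condition. Only Tg separates WT (0.122 to 0.298 CPM) from E6 (0.476 to 0.735 CPM). For the other 4 genes the cell types overlap.

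Promoter windows of RefSeq (GRCm38.p6, 250 bases before to 50 after the start) were matched by symbol for 30 of the 38 genes, 31 windows in all. The hexamer TATAAA stood on the gene's strand within the 50 bases before the start in 5 of the 30 genes, against 2.63% of 32851 promoters. These were Gcg, Ppy, Crp, Fabp1 and Reg3b, and all 5 had 0 counts in every library, as did 16 of the 30 genes in all. A link between the hexamer and the counts was not tested. Their last 60 bases before the start are shown 5′ to 3′, with TATAAA in capitals, as examples of windows that carry this hexamer at genes without a count.
Gcg, chr2:62483654-62483713, minus strand: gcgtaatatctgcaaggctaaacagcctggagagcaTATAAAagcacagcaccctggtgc
Ppy, chr11:102101320-102101379, minus strand: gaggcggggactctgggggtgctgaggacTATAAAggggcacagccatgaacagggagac
Crp, chr1:172697996-172698055, plus strand: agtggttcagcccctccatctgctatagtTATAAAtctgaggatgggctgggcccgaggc
Fabp1, chr6:71199819-71199878, plus strand: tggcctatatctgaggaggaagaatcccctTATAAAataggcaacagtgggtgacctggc
Reg3b, chr6:78370825-78370884, plus strand: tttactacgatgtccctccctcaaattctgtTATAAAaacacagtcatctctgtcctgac

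Tnnt2, the gene with by far the most counts, had 2 windows without TATAAA at that place. The first held the letters CATTCCT, known from muscle gene promoters as the M-CAT element that TEAD factors bind, which were found on either strand in 5.36% of all promoters and in 4 of the 30 genes (Tnnt2, Myh6, Fgb and Mog). The last 120 bases before that start are shown with CATTCCT in capitals, which begin 27 bases before the start.
Tnnt2, chr1:135836214-135836333, plus strand: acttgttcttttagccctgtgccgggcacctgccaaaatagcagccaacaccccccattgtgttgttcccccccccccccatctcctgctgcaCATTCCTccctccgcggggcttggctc

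A match of letters is a description and not a binding site. The observed over expected CpG ratio was 0.226 and 0.064 in the windows of Tnnt2, below the median of all promoters of 0.384. Ratios of at least 0.6 were found in 2 genes, Gad1 (0.849) with 0 counts and Sst (0.707) with 1 count, against 35.8% of all promoters. The median ratio was 0.249 over the 14 genes with a count and 0.192 over the 16 without. Mbp, Tg and Csn3 had counts but no matched window, so both medians leave them out. Among the 14 genes, Tnnt2 held 50946 counts summed over the libraries, and Sag came next with 41.

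**Figure D4:**
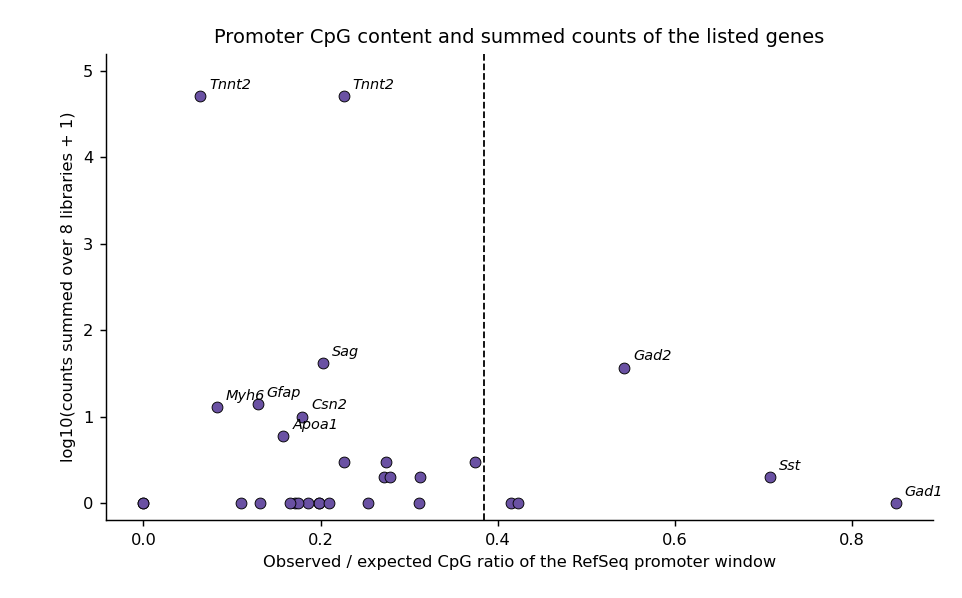
CpG content of the 31 RefSeq promoter windows (observed over expected ratio, x axis) against the summed counts of the gene as log10(count + 1) (y axis). Points are windows, so that Tnnt2 appears 2 times, and the dashed line is the median of all promoters, 0.384. Mbp, Tg and Csn3 had counts but no window and are not shown. Tnnt2 lies left of the line at 0.064 and 0.226, and Gad1, the farthest right at 0.849, has 0 counts.

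Differences between E6 and WT could be tested for 3 of the 38 genes, Tnnt2, Mbp and Tg, since the others did not pass the filter on low counts. Averaged over both states, 1 of the 3 was called (Tg, higher in E6), where 11.3% of the 11672 tested genes were called, 5.22% as higher in E6. A call required an FDR under 0.05 and a fold change of at least 1.5. Tg encodes thyroglobulin, the precursor of thyroid hormone and a classic thyroid autoantigen, and lies on chr15:66670753-66850721.

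Tg counts were 2 and 2 in WT before adhesion, 3 and 6 in WT after adhesion, 10 and 9 in E6 before adhesion, and 12 and 9 in E6 after adhesion. All 4 E6 libraries (0.476 to 0.735 CPM) stood above all 4 WT libraries (0.122 to 0.298 CPM), as did those of 16.7% of the tested genes. The mean level was 0.613 ± 0.120 CPM in E6 and 0.192 ± 0.0778 CPM in WT (SD, n = 4 each). The log2 fold change was 1.66 (SE 0.39, FDR 0.0239, edgeR). Over the summed counts, 40 in E6 and 13 in WT, the ratio of CPM was 3.04 with an exact 95% counting interval of 1.59 to 6.19.

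The filter required 0.613 CPM in 2 libraries, which Tg reached in 2 E6 libraries and in no WT library, so that the gene entered the test through the cell type in which it was higher. Without the filter its FDR was 0.0375. The call was lost without either WT library before adhesion (FDR 0.122 and 0.102), without either E6 library before adhesion (0.0969 and 0.068) and without either E6 library after adhesion (0.119 and 0.0874), at log2 fold changes of 1.53 to 1.79. It was also lost with DESeq2 (log2 fold change 1.72, adjusted p = 0.0814).

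By state, the log2 fold change of Tg was 2.06 before adhesion (SE 0.60, FDR 0.0936) and 1.26 after adhesion (SE 0.50, FDR 0.144), and neither passed the threshold (edgeR). Without replicate 1 or 2 of WT after adhesion, the difference before adhesion passed it at an almost unchanged log2 fold change (2.05 in each fit). The SE was larger in both fits (0.79 and 0.78), so the pass does not mark a stronger difference. The difference of the adhesion effects did not pass the threshold (-0.80, SE 0.80, FDR 0.988). Of the 3 genes tested, 0 were called before adhesion, where 5.01% of all tested genes were called, and 0 after adhesion, where 8.91% were. At an unadjusted p under 0.05 (edgeR) there was 1 of the 3 in each state, Tg. Of the 11672 tested genes, 2521 stood under it before and 3464 after adhesion. DESeq2 called 0 of 5 in each state, where it called 806 and 1308 of 12252 genes.

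Culture time was also set beside the Tg level. In each condition with both culture times, the library of 24 h had the higher Tg level in CPM. These are single libraries at low counts. The Tg counts at 24 h and 12 h were 6 and 3 in WT after adhesion. They were 10 and 9 in E6 before adhesion and 12 and 9 in E6 after adhesion. The difference of Tg by culture time was not tested. Among the libraries of 12 h, E6 stood at 0.476 to 0.552 CPM (2 libraries) and WT at 0.122 to 0.1995 CPM (3 libraries), a ratio of 3.29 over the summed counts (95% counting interval 1.31 to 9.31). Among those of 24 h, E6 stood at 0.690 to 0.735 CPM (2 libraries) and WT at 0.298 CPM (1 library), a ratio of 2.40 (0.943 to 7.23). With culture time as a term of the fit, the log2 fold change averaged over both states was 1.56 (FDR 0.0495, edgeR).

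Sla, a gene of lymphocytes, lies within Tg on the opposite strand and shares no exon bases with it, and an antisense gene overlaps Tg exons by 112 bases. Before adhesion, the 15 thymocyte markers measured summed to 0.529 to 1.26 CPM over the libraries of both cell types. The part of Sla, of the antisense gene or of thymocyte RNA in the Tg counts was not tested. In these bulk libraries, a change in the share of cells that transcribe a gene and a change in its mRNA per cell cannot be told apart.

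In the fit of all 8 libraries, Tnnt2 and Mbp did not pass the threshold in any of the 7 comparisons. Each passed it in 1 comparison when a library was left out, in a fit with 1 library in that condition. For Tnnt2, the log2 fold change of E6 against WT was -0.12 averaged (SE 0.14, FDR 0.586), 0.05 before adhesion and -0.30 after it (edgeR). Without replicate 1 of WT after adhesion the averaged value turned to 0.07 and that after adhesion to 0.08. For Mbp, the value was -0.02 averaged (SE 0.11, FDR 0.949), -0.16 before adhesion and 0.13 after it (edgeR). Without replicate 1 of WT after adhesion, the Mbp value after adhesion was -0.05.

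**Figure D5:**
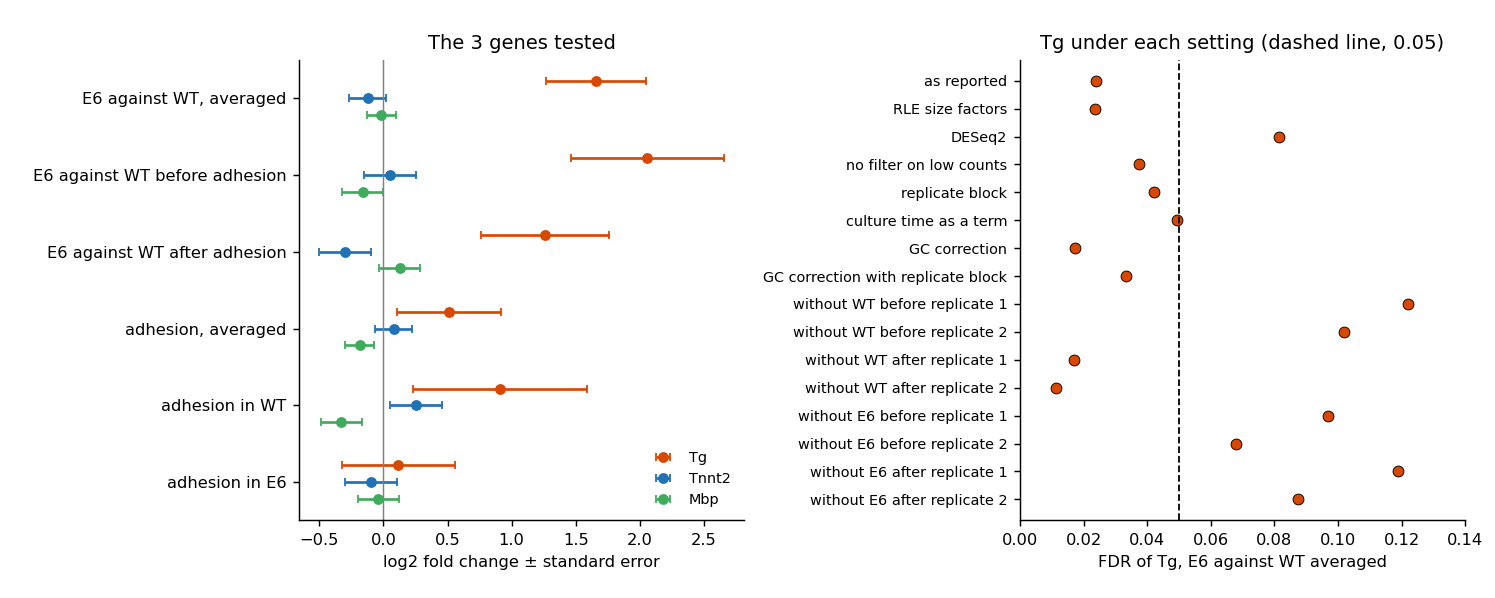
Left, log2 fold change ± SE of Tg, Tnnt2 and Mbp in 6 comparisons (E6 minus WT, or after minus before adhesion). Right, FDR of Tg for E6 against WT averaged over both states, under the reported setting and each alternative, with the threshold of 0.05 as a dashed line. Tg lies at 1.66, 2.06 and 1.26 in the comparisons of E6 with WT, and its FDR ranges from 0.0112 to 0.122.

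Adhesion of thymocytes was compared in each cell type and averaged. Of the 3 genes tested, 0 were called in WT, where 0% of the 11672 tested genes were called (873 at an unadjusted p under 0.05, and 62 by DESeq2). In E6, 0 of the 3 were called, where 2% of the tested genes were, and averaged over the cell types 0 of the 3, where 1.89% were. At an unadjusted p under 0.05 there were likewise 0 of the 3 in each of these comparisons, against 813 of all tested genes in E6 and 1154 averaged. DESeq2, which tested more of the listed genes, called 0 of 17 in E6 and 0 of 16 averaged. Over all genes it called 264 of 15836 in E6 and 314 of 15644 averaged. For the difference of the adhesion effects, 0 of the 3 were called, where 0% of the tested genes were (297 at an unadjusted p under 0.05, and 2 by DESeq2).

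Between the libraries after and before adhesion, Mbp differed by -0.33 on the log2 scale in WT (SE 0.16, FDR 0.62) and by -0.04 in E6 (SE 0.16, FDR 1, edgeR). Without replicate 2 of WT after adhesion, which leaves the library that stood apart in GC content as the only one of its condition, Mbp was called lower in WT (-0.59, FDR 5.65e-06). Tnnt2 differed by 0.26 in WT (SE 0.20, FDR 0.644) and by -0.09 in E6 (SE 0.20, FDR 1, edgeR). Without replicate 1 of WT after adhesion the value in WT was -0.10. Tg differed by 0.91 in WT (SE 0.68, FDR 0.645) and by 0.12 in E6 (SE 0.44, FDR 1, edgeR), and without E6 before adhesion replicate 2 or E6 after adhesion replicate 1 the value in E6 was -0.14 or -0.11.

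Thymocyte markers stood at a higher summed level after adhesion. All 15 markers measured had counts (of 25 listed, 10 were not analysed here), and their summed level after adhesion was 28.0 and 17.8 CPM in WT and 156 and 123 CPM in E6, against at most 1.26 CPM before. Beside this, the level of Mbp, whose gene thymocytes transcribe, was 57.0 and 85.9 CPM in WT after adhesion and 80.7 and 81.5 CPM in E6 after adhesion, against 80.05 to 96.5 CPM before. The part of thymocyte RNA in the Csn2 counts after adhesion was not tested.

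Fezf2 had 2 counts in each E6 library after adhesion and 0 in the other 6. All 23 genes of a list of regulators of promiscuous expression, which holds Aire, Fezf2 and partners of AIRE, had counts, and 21 were tested. Averaged over both states, 1 of the 21 was lower in E6 and 0 were higher, where 6.13% of all tested genes were lower. That gene was Sirt1, a deacetylase that acts on AIRE, named after its values were seen (log2 fold change -0.74, SE 0.11, FDR 0.00492, edgeR). The median log2 fold change was -0.12 over these 21 genes and -0.01 over all tested genes.

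A wider list of 75 related tissue-restricted genes was read in the same way, 74 of which stood in the files. Of these, 44 (59.5%) had 0 counts in every library, 18 (24.3%) had 1 to 19 and 12 (16.2%) had at least 20, against 55.3%, 31.6% and 13.2% of the 38 genes. Averaged over both states, 1 of the 8 tested was higher in E6 and 0 were lower, where 5.22% of all tested genes were higher and 6.13% lower. That gene was Acta1, for skeletal muscle actin, with 0 counts in both WT libraries before adhesion, 3 and 10 in WT after adhesion, 15 and 11 in E6 before adhesion, and 7 and 15 in E6 after adhesion (FDR 0.0235, edgeR). Acta1 reached the filter in 2 E6 libraries and in 0 WT libraries, so that it too entered the test through the cell type in which it was higher, and without the filter its FDR was 0.0313. The averaged call was lost without any 1 of the 6 libraries of WT before, E6 before and E6 after adhesion (FDR 0.0567 to 0.099). Acta1 was also called before adhesion, against WT libraries at 0 (FDR 0.049, edgeR), but not without the filter (0.0669), with the replicate block (0.0839) or without any 1 of those 6 libraries (0.103 to 0.276), and after adhesion its FDR was 0.444. With DESeq2 both Acta1 calls stood (adjusted p = 0.00528 averaged and 0.0101 before adhesion). The GC correction alone kept both as well (FDR 0.0156 and 0.0282, edgeR). The call before adhesion was lost with culture time as a term (FDR 0.104, edgeR). It was also lost with the GC correction and replicate block together (FDR 0.0537, edgeR). The ranges of E6 and WT overlapped for Acta1, with means of 0.741 ± 0.284 CPM in E6 and 0.174 ± 0.235 CPM in WT (SD, n = 4 each). The median log2 fold change of the 8 genes was -0.27.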

How the data were processed

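RNA-Seq reads of 8 libraries were aligned by the authors to mm10 (GRCm38) with STAR 2.5.0a, per the submitters' processing notes, and the deposited values are raw counts of reads per gene from HTSeq, without normalization. The annotation and strand setting of the counting are not given in the sources used here. The labels name a stranded mRNA kit and the study's methods a stranded total RNA kit, so whether the libraries were selected for poly(A) is not settled. Between 21.2% and 33.3% of reads fell on no gene or on several and were left out. In 1 library, 18 symbols turned into dates were restored from the gene order.

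Samples were grouped by cell type and co-culture as given in their titles. The 38 genes were set by symbol, and they and the other lists were chosen with earlier results of these data known. Genes with at least 20 summed counts were given in every library, genes with 1 to 19 by their libraries, genes with 0 by name. Of the related list, genes called for E6 against WT averaged were named, up to 10, by size of change.

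Counts were fitted in R 4.3.3 with edgeR 4.0.16 (filterByExpr, TMM, quasi-likelihood test, 1 mean per condition over 8 libraries, two-sided), with Benjamini-Hochberg adjustment over the 11672 genes kept. SEs were derived from the F statistic and may understate the error at low counts. Alternatives were RLE scaling, DESeq2 1.42.0, no filter, a GC correction, a replicate block, the 4 compared libraries alone, no fold change limit and leaving out each library. Culture time as a term was added after seeing the data. The procedure was tested on simulated data. Counting intervals are exact and conditional on the summed count. Gene positions and exon lengths came from GENCODE vM21 on GRCm38 (22740 symbols matched directly, 933 through older symbols, 379 not), and promoters from RefSeq. The depth of 13506610 to 20145154 counts limits values near 3 counts.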

Additional observations from a re-analysis of the deposited data

Results flagged for a closer look

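Dixon's ratio, for the gap of 1 library to its nearest neighbour, was taken over 20 groups of 4 libraries. The groups were formed by cell type or by state for the 5 genes with at least 20 summed counts. The ratio exceeded its 95% critical value in 3 groups. Chance gives about 1 in 20 only for independent, normally spread values. The groups here share libraries and the flagged counts are low, so the number expected by chance is not known. Gad2 in E6 after adhesion replicate 2 stood at 0.736 CPM against 0.184 to 0.276 CPM in the other E6 libraries (ratio 0.833). Gad2 in WT before adhesion replicate 2 was 0 against 0.243 to 0.276 CPM in the other libraries before adhesion (ratio 0.881). Sag in WT before adhesion replicate 1 stood at 0.304 CPM against 0.444 to 0.466 CPM in the other WT libraries (ratio 0.868). All 3 rest on at most 12 counts per library.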

How the results depend on the processing

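With DESeq2 in place of edgeR, 0 of the listed genes were called for E6 against WT averaged, against 1, Tg, as reported. Leaving out each library in turn gave 0 to 1 calls for E6 against WT averaged, 0 to 1 before adhesion, 0 to 1 for adhesion in WT and 0 to 1 for the difference of the adhesion effects, and 0 in the other 3 comparisons. The other alternatives run left each comparison's number of calls among the listed genes as reported. Over its 15 alternatives the averaged log2 fold change of Tg ranged from 1.53 to 1.80 and its FDR from 0.0112 to 0.122, with the call kept in 8. Mbp averaged turned to 0.0063 without the filter. Without single libraries, Mbp ranged from -0.10 to 0.12 averaged and from -0.0508 to 0.40 after adhesion (E6 against WT). Tnnt2 likewise ranged from -0.25 to 0.0654 averaged, -0.0252 to 0.13 before and -0.55 to 0.0799 after adhesion, and for adhesion from -0.10 to 0.52 in WT, -0.0816 to 0.22 averaged and -0.60 to 0.029 for the difference of effects. Tg ranged from -0.14 to 0.37 for adhesion in E6. Without the fold change limit, 2 regulators were called for E6 against WT averaged.

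The mean number of genes detected per library was 6.0 in WT before, 9.0 in WT after, 8.0 in E6 before and 9.0 in E6 after adhesion. With at least 3 counts it was 4.5, 6.5, 5.0 and 5.0. With at least 0.1 CPM it was 7.0 in WT after, 6.0 in E6 before and 6.0 in E6 after adhesion. In WT after adhesion it was 8.43 after thinning and 8.0 without Mbp. Low counts limit 36 of the 38 genes, whose highest count in a library was 12.

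With the replicate block, 1 listed gene was called for E6 against WT averaged (Tg, log2 fold change 1.65, FDR 0.0421) and 0 in the other comparisons, and with the GC correction as well 1 (1.61, FDR 0.0333). The replicate numbers were not shown to pair the libraries, since the deviations of same-numbered libraries correlated at 0.187 between the WT conditions and at -0.056 to 0.024 otherwise. Over all genes the block moved the calls from 1324 to 1274 averaged, from 585 to 383 before and from 1040 to 721 after adhesion, and from 234 to 132 for adhesion in E6 and 221 to 139 averaged.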
